A study of Mus musculus with 4 samples.

Results

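The oxidative phosphorylation (OXPHOS) genes were followed in the hippocampus of WT mice and of Lsd1 KI mice. They were all protein-coding genes whose symbol starts with Ndufa, Ndufb, Ndufc, Ndufs or Ndufv (but not Ndufaf), Uqcr, Cox4 to Cox8, Atp5 or mt-, and the succinate dehydrogenase genes Sdha, Sdhb, Sdhc and Sdhd, matched by Ensembl gene ID. The rule found 99 genes, 86 in the nuclear and 13 in the mitochondrial genome, of which 97 were listed in the files and tested, out of 18436 genes tested and 26328 listed. Cox8c, a testis isoform, and the second of 2 IDs that carry the symbol Atp5o (ENSMUSG00000116933) were in none of the files and have no value. In the Lsd1 KI mice, a line on a C57BL/6 background, the serine of LSD1 that protein kinase C alpha phosphorylates is replaced by alanine in every cell that makes LSD1. Each group held 2 samples of poly(A) RNA from hippocampus, and WT and KI mice were littermates. The study used male mice between 8 and 15 weeks of age in its behavioural work, and the age of the sequenced animals is not stated separately. All values are RPKM, reads per kilobase of exon, normalised to sequencing depth.

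OXPHOS couples the oxidation of NADH and succinate to the making of ATP in the inner mitochondrial membrane. Complexes I and II feed electrons to ubiquinone, complex III passes them to cytochrome c, complex IV hands them to oxygen, and complex V, the ATP synthase, uses the proton gradient that results. Neurons meet most of their ATP demand in this way, and every complex except II is built from subunits of both genomes, which makes the balance between nuclear and mitochondrial transcripts of interest. By complex, the nuclear genes numbered 36 in complex I, 4 in II, 8 in III, 20 in IV and 18 in V. The mitochondrial genes numbered 7 in complex I, 1 in III, 3 in IV and 2 in V. Ndufa4 and Ndufa4l2 were placed in complex IV, to which the Ndufa4 protein belongs, and Atp5s was kept by its symbol although it is not a subunit of the synthase.

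The steps of the RPKM values corresponded to about 13410000 and 8830000 mapped reads in WT replicates 1 and 2, and 14380000 and 14950000 in KI replicates 1 and 2. Markers of hippocampal neurons were present in all samples, with summed levels of 795 to 836 RPKM over 5 pan-neuronal genes and 141 to 177 RPKM over 5 CA1 genes. Some markers of cell composition moved with the groups. The summed level of 6 dentate granule cell markers was 113 and 111 RPKM in WT and 75.6 and 93.9 RPKM in KI, none was at 0 in all samples, and 4 of the 6 were lower in KI at an unadjusted limma p under 0.05. Over 6 choroid plexus markers the sum was 14.5, 19.98 and 17.0 RPKM in WT 1, WT 2 and KI 2 but 60.9 RPKM in KI 1. Ttr made up most of the KI 1 sum, at 51.3 RPKM. Of the 3 choroid plexus markers tested, 1 was higher in KI at an unadjusted limma p under 0.05. It was Kl, at 4.87 and 5.14 RPKM in WT and 7.05 and 6.72 RPKM in KI. Striatal markers summed to 18.9 and 17.8 RPKM in WT and 21.9 RPKM in each KI sample. Of these 5, 2 were higher in KI at an unadjusted limma p under 0.05. So were 2 of 5 microglial markers and 1 each of 5 pan-neuronal, 5 endothelial and 4 tested thalamic markers. Of 5 astrocyte markers 1 was lower, and of 6 CA3 and CA2 markers 1 was higher and 1 lower. The CA1, oligodendrocyte, red blood cell and skeletal muscle markers had 0 in either direction. In bulk tissue fewer cells of a type and less RNA per cell cannot be told apart, and the part of these markers in the values below was not tested.

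Several of the mitochondrial genes have near-identical copies in the nuclear genome, and these are shown first because they bear on the levels of the genes they copy. A block of 7 annotated pseudogenes on the minus strand of chromosome 1 (chr1:24611535-24616197, GRCm38) follows the mitochondrial gene order from mt-Co1 to mt-Nd4. The copies Gm28661 of mt-Co2, Gm10925 of mt-Atp6, Gm28437 of mt-Co3 and Gm10222 of mt-Nd4l matched their gene without a difference over 681, 678, 783 and 294 bases. Gm28439 matched 876 of the 1378 bases of mt-Nd4, also without a difference. Gm28438 differed from mt-Nd3 at 1 of 345 bases and Gm29216 from mt-Co1 at 6 of 492 bases. The stretches below are 60 bases each on the coding strand, from GENCODE transcripts, with the bases that differ in capitals. For mt-Co1 they cover the edge of the block (chrM:6381-6440 and chr1:24616138-24616197), for mt-Co2 the start codon (chrM:7013-7072 and chr1:24615506-24615565), and for mt-Nd3 the start codon (chrM:9459-9518 and chr1:24613060-24613119).
mt-Co1: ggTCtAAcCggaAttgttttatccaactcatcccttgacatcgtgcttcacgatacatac
Gm29216: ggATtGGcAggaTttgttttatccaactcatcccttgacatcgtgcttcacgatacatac
mt-Co2: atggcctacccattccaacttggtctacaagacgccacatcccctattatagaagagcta
Gm28661: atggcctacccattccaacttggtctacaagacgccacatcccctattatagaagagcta
mt-Nd3: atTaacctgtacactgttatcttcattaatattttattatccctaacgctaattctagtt
Gm28438: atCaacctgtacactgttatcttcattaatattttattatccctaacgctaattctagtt
The differences, counted from 1 at the first base of the gene with the mitochondrial base first, were T1056A, C1057T, A1059G, A1060G, C1062A and A1066T in mt-Co1 and T3C in mt-Nd3. The pair from mt-Co2 has no capitals because it is identical.

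The mitochondrial genes fell into a high and a low class in every sample. mt-Co1, the catalytic core of complex IV, was at 9789 and 9064 RPKM in WT and 9183 and 9151 RPKM in KI. mt-Cytb, the cytochrome b of complex III, was at 7355 and 6487 RPKM in WT and 6898 and 6991 RPKM in KI. The proton-pumping complex I subunits followed, with means over the 4 samples of 5523 RPKM for mt-Nd1, 4269 RPKM for mt-Nd2, 2628 RPKM for mt-Nd5, 2532 RPKM for mt-Nd6 and 2128 RPKM for mt-Nd4. mt-Nd6 lies on the minus strand and overlaps mt-Nd5 on the plus strand, and whether counting used strand is not given. The value of mt-Nd6 may therefore hold reads of plus-strand transcripts at its locus, which cannot be told apart here. Among the remaining genes mt-Nd3, also of complex I, stood at 245 and 231 RPKM in WT and 254 and 264 RPKM in KI. The other 5 lay far lower. The complex V genes mt-Atp8 and mt-Atp6 were at 61.6 to 78.9 and 63.2 to 69.3 RPKM. mt-Co3 and mt-Co2, core subunits of complex IV next to mt-Co1, were at 34.1 to 38.8 and 34.7 to 35.8 RPKM, and mt-Nd4l at 28.6 to 32.9 RPKM. The 4 samples gave the same division, so it did not follow genotype.

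The genes of the low class were held nearly whole in annotated copies of the chromosome 1 block, except mt-Atp8, which has no annotated copy there. Of all 100-base windows in a gene's transcript, the share found letter for letter in a gene at another locus was 99.9% for mt-Co3, 99.5% for mt-Co2 and mt-Atp6, 98.5% for mt-Nd4l and 97.6% for mt-Nd3. It was 60.8% for mt-Nd4, 30.8% for mt-Co1, 3.19% for mt-Nd2 and 0% for mt-Nd1, mt-Nd5, mt-Nd6, mt-Cytb and mt-Atp8. The 5 genes above 97% had a median of 37.0 RPKM. Of the 6 genes under 4%, mt-Atp8 was at 69.3 RPKM, in the low class although none of its windows lay in another annotated gene, and the other 5 had a median of 4269 RPKM. mt-Atp8 lies between mt-Co2 and mt-Atp6, both of which have copies in the block. The stretch of the block between those copies, from chr1:24614651 to chr1:24614885, was not compared with mt-Atp8. Its share of 0% therefore does not show that mt-Atp8 is absent from the block. The authors kept uniquely mapped read pairs, so a pair that fits both loci equally well was not kept, and levels of these genes relative to the other mitochondrial genes are uncertain. The same restriction held in all 4 samples. Gm10222 was the only 1 of the 7 copies with a listed value, 25.3 and 29.7 RPKM in WT and 32.8 and 31.5 RPKM in KI, close to the level of its gene mt-Nd4l. Whether the annotation used for counting held the other copies was not checked, so their missing values do not show that they had no reads. A further pseudogene of mt-Co2 on chromosome 2, Gm13341, was at 93.9 to 126 RPKM, above mt-Co2 itself.

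**Figure D1:**
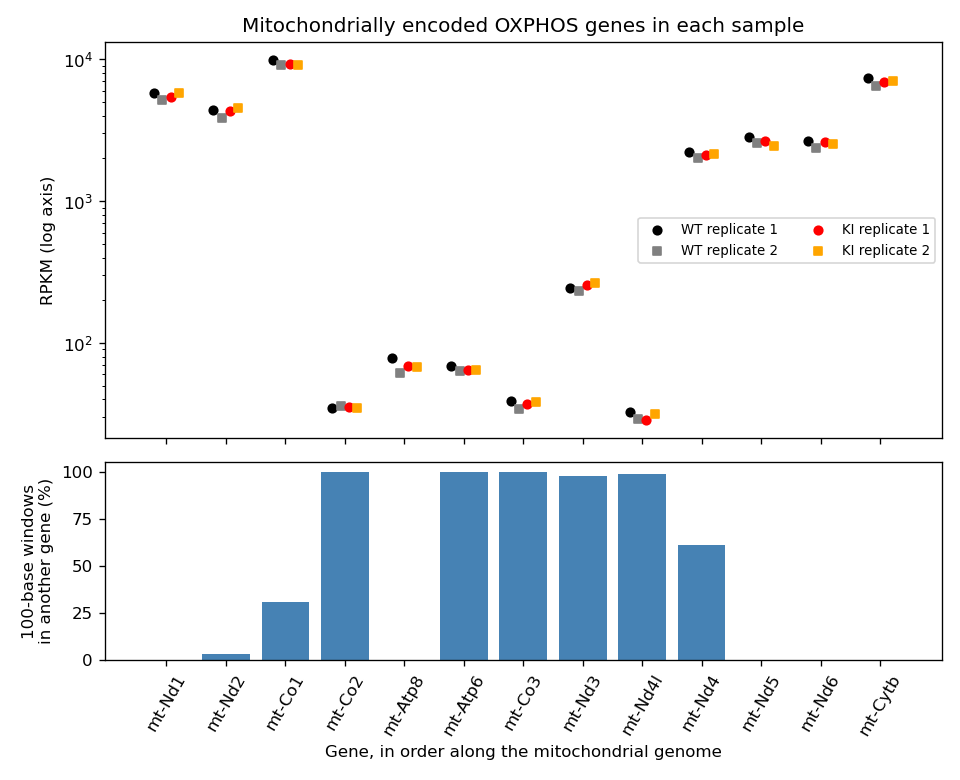
Upper panel, RPKM (log axis) of the 13 mitochondrial genes in each of the 4 samples, in order along the mitochondrial genome. Lower panel, percent of 100-base windows of each gene found in a gene at another locus. The run from mt-Co2 to mt-Nd4l sits between 28.6 and 264 RPKM, and the genes on either side at 2017 RPKM or above, while the 4 samples lie close together for every gene.

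Between genotypes the mitochondrial genes differed little. Their log2 fold changes (KI minus WT, log2(RPKM + 1)) ran from -0.07 for mt-Nd5 to 0.12 for mt-Nd3, with a median of 0.01 beside 0.01 over all tested genes. All 13 changed by less than 1.2-fold, and the 95% interval of each lay within 1.5-fold in either direction. The groups overlapped for 12 of the 13. For mt-Nd3 both KI values were above both WT values, 259 ± 7.30 against 238 ± 10.2 RPKM (SD, n = 2 each), with a 95% interval of -0.02 to 0.27 and an adjusted limma p of 0.556. WT 1 was the highest sample for 10 genes and WT 2 the lowest for 10, so the spread within WT was wider than the gap between groups. Protein-coding mitochondrial transcripts held 4.35% and 3.92% of mapped reads in WT and 4.10% and 4.14% in KI. Summed over the 13 genes, the level was 35540 and 31955 RPKM in WT and 33593 and 34092 RPKM in KI. Both KI sums lay between the WT sums, and the difference of 95.2 RPKM gave an exact permutation p of 1 (two-sided, and 2 against 2 samples cannot go below 0.333).

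The 84 nuclear genes tested summed to 4222 and 4460 RPKM in WT and 4377 and 4440 RPKM in KI. The difference of 67.3 RPKM again gave an exact permutation p of 1, since the KI sums lay between the WT sums. The ratio of mitochondrial to nuclear sums was 8.42 and 7.17 in WT and 7.68 in each KI sample (exact permutation p = 1). Of the 5 complexes, the nuclear sum was apart between groups in complex I, at 1309 and 1355 RPKM in WT and 1369 and 1375 RPKM in KI, a ratio of 1.03 with the smallest exact permutation p the design allows, 0.333. The sums of complexes II, III, IV and V overlapped between the groups, with ratios of 1.01, 1.02, 1.01 and 1.00.

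Gene by gene, 0 of the 97 passed the threshold of an adjusted limma p under 0.1 and a 1.2-fold change, as did 0% of all tested genes. The authors' edgeR analysis of these samples did report differentially expressed genes, so the 0% holds for this fit only. The smallest adjusted limma p among the 97 was 0.307. At an unadjusted limma p under 0.05 there were 8 genes (8.25%), against 9.62% of all tested genes. Of these, 7 were higher in KI, where 6.3% of all genes were, and 1 was lower, where 3.33% were. The KI samples were both above the WT samples for 26 of the 97, an arrangement that held for 24% of all tested genes. Both lay below for 5, compared with 18.1% of all genes, and 66 genes overlapped. The fold change was above 0 for 60 of 97 (61.9%) and for 54.4% of all genes.

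The changes were small in size. A change of less than 1.2-fold was seen in 93 of the 97 genes (95.9%), compared with 86.9% of all tested genes, and a 95% interval within 1.5-fold in either direction in 91 (93.8%) compared with 80.2%. The median size of the log2 change was 0.05 beside 0.09 for all genes. Among genes with a mean of at least 5 RPKM, the interval lay within 1.5-fold for all 75 nuclear OXPHOS genes and for 92.3% of 9970 genes overall. Short genes as a class stood slightly higher in KI. Over the 2427 genes of at least 5 RPKM with exons under 2000 bases, the median log2 fold change was 0.04, and over the 45 nuclear OXPHOS genes among them it was also 0.04. The fold change was above 0 for 61.6% of the 2427 genes and for 64.4% of the 45.

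**Figure D2:**
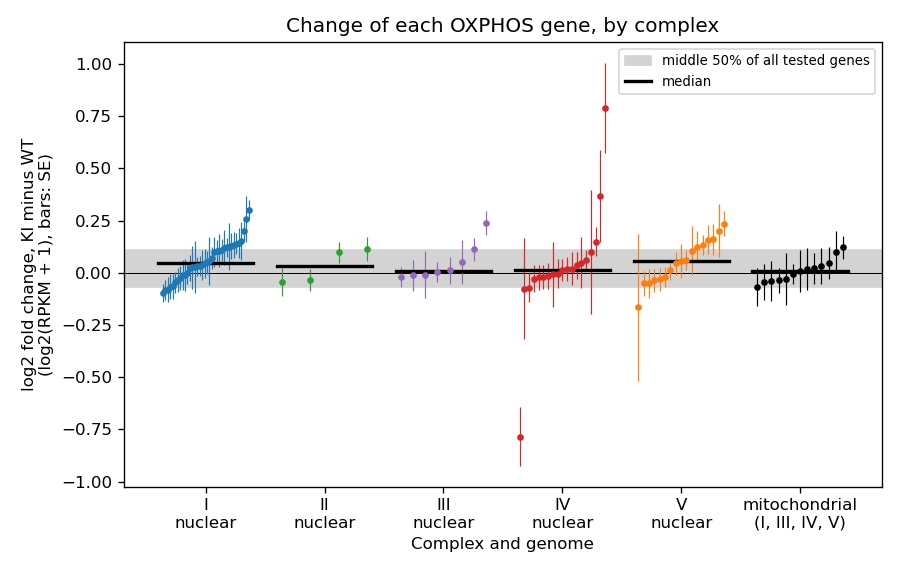
log2 fold change (KI minus WT, log2(RPKM + 1)) of each of the 97 genes, grouped by complex and genome, with SE bars, the group median as a black line and the middle 50% of all tested genes in grey. The medians lie between 0.01 and 0.06, and the 2 points far from 0 in complex IV are Cox7b2 at -0.79 and Cox6b2 at 0.79.

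Complex I, the NADH dehydrogenase, had a median log2 fold change of 0.05 over its 36 nuclear genes, of which 25 (69.4%) were above 0, compared with 54.4% of all tested genes. KI was above WT without overlap for 13 of the 36 and below for 4, where 24% and 18.1% of all tested genes were. Its highest genes were the accessory subunits Ndufb9 at 121 and 137 RPKM in WT and 135 and 130 RPKM in KI, Ndufa6, given below, and Ndufb10 at 67.3 to 76.0 RPKM. Ndufs6, an accessory subunit at the NADH-oxidising end that complex I needs for its assembly, was at 16.2 and 16.4 RPKM in WT and 20.5 and 20.2 RPKM in KI. Replicates lay close together and the groups apart, with a log2 fold change of 0.30 ± 0.05 (SE), an unadjusted limma p of 0.0023 and an adjusted p of 0.307. Ndufs6 lies at chr13:73319838-73328542 on the minus strand and overlaps the gene Mrpl36 on the other strand, and whether counting used strand is not given in the sources used here, so reads of both cannot be told apart. Ndufv3, an accessory subunit of the same NADH-oxidising module (chr17:31520115-31531331, plus strand), was at 26.1 RPKM in each WT sample and 30.3 and 29.9 RPKM in KI. Its log2 fold change was 0.20 ± 0.05 (SE), with an adjusted limma p of 0.399. Ndufa6, a LYR-motif subunit that holds the mitochondrial acyl carrier protein Ndufab1, was at 81.7 and 86.6 RPKM in WT and 93.5 and 92.0 RPKM in KI, a log2 fold change of 0.14 ± 0.05 (SE) with an adjusted limma p of 0.506.

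Complex II, the succinate dehydrogenase that also serves the citric acid cycle, is wholly nuclear. Sdha, the flavoprotein that oxidises succinate, was at 102 and 110 RPKM in WT and 102 and 104 RPKM in KI, and the groups overlapped. The iron-sulphur subunit Sdhb was at 32.2 and 34.8 RPKM in WT and 36.03 and 36.6 RPKM in KI. The membrane anchor Sdhd was at 39.6 and 37.4 RPKM in WT and 41.3 and 41.2 RPKM in KI. Sdhb and Sdhd were apart between groups with log2 fold changes of 0.11 and 0.10, the second anchor Sdhc overlapped, and 0 of the 4 reached an unadjusted limma p under 0.05. In complex III the core proteins Uqcrc1 and Uqcrc2 were at 98.7 to 102 and 67.5 to 70.8 RPKM and overlapped between groups. The small subunit Uqcr10 was at 59.5 and 58.4 RPKM in WT and 61.6 and 66.2 RPKM in KI. Uqcrq, a small subunit named for its place near ubiquinone (chr11:53427922-53430831, minus strand), was at 21.05 and 22.1 RPKM in WT and 24.9 and 26.4 RPKM in KI. Both KI samples were higher, with a log2 fold change of 0.24 ± 0.06 (SE) and an adjusted limma p of 0.421, and the other 7 nuclear genes of complex III lay between -0.02 and 0.11.

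Complex V, the ATP synthase, is a catalytic F1 head joined to a membrane rotor by a central and a peripheral stalk. The catalytic beta subunit Atp5b was at 197 and 209 RPKM in WT and 193 and 203 RPKM in KI. The alpha subunit Atp5a1 was at 221 and 243 RPKM in WT and 218 and 230 RPKM in KI, and Atp5mpl, a small membrane subunit, was at 69.2 to 76.2 RPKM. All 3 overlapped between groups. Atp5e, the epsilon subunit of the central stalk (chr2:174461072-174464105, minus strand), was at 11.3 and 10.8 RPKM in WT and 12.99 and 13.3 RPKM in KI, a log2 fold change of 0.24 ± 0.06 (SE) with an adjusted limma p of 0.430. Atp5o, the oligomycin sensitivity protein that ties the peripheral stalk to the head (chr16:91925214-91931687, minus strand, overlapped by antisense genes and the second Atp5o ID), was at 28.7 and 28.9 RPKM in WT and 31.1 and 32.2 RPKM in KI. Its log2 fold change was 0.13 ± 0.05 (SE) with an adjusted limma p of 0.507, and an unadjusted p of 0.044. Over the 17 genes of complex V the median log2 fold change was 0.06, with 11 (64.7%) above 0.

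**Figure D3:**
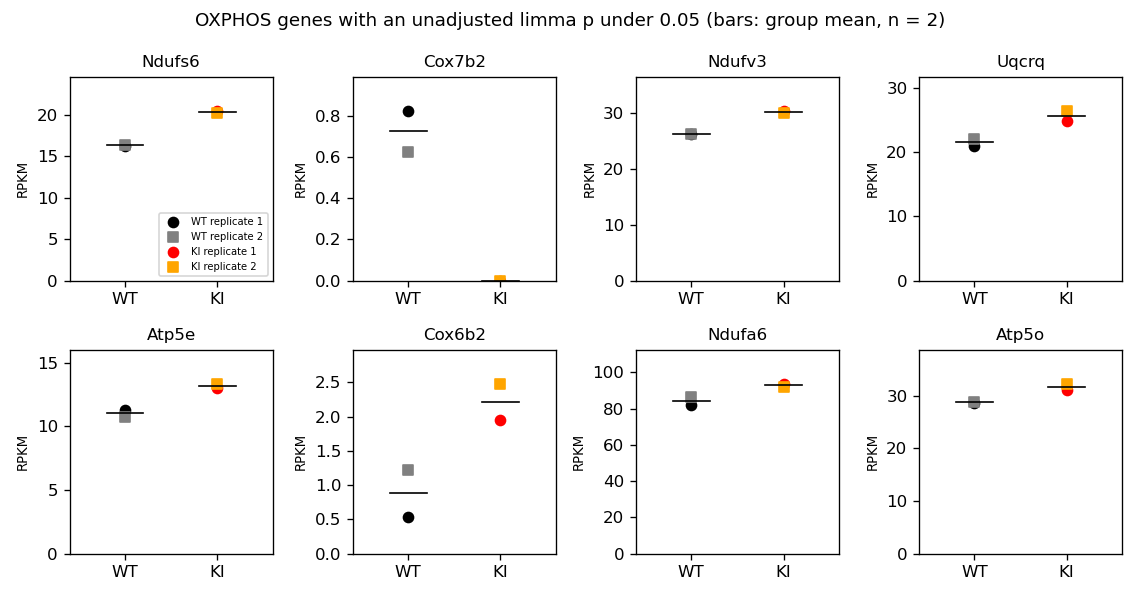
RPKM in each sample of the 8 genes with an unadjusted limma p under 0.05, with the group mean as a bar (n = 2) and each axis starting at 0. The 2 WT and the 2 KI samples are apart in all 8 panels, KI is lower in the panel of Cox7b2 alone, and Cox7b2 and Cox6b2 lie under 3 RPKM.

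Complex IV, the cytochrome c oxidase, holds most of the subunits that exist as paralogous isoforms. In hippocampus the broadly expressed form exceeded the tissue-restricted form in every sample. Cox8a was the highest nuclear gene of the set, at 345 and 382 RPKM in WT and 371 and 353 RPKM in KI, whereas Cox8b, the form of heart and skeletal muscle, lay between 0 and 0.63 RPKM (0 to 3 reads). Cox6a1 was at 162 to 178 RPKM and its muscle form Cox6a2 at 2.64 to 4.88 RPKM. Cox7a2 was at 56.9 to 64.2 RPKM, its relative Cox7a2l at 58.6 to 62.8 RPKM, and the muscle form Cox7a1 at 1.72 to 2.20 RPKM. Summed skeletal muscle markers were low in all samples, at 3.82 to 5.30 RPKM over 5 genes. Cox4i1 was at 147 to 162 RPKM and Cox4i2, a form induced by low oxygen and found in lung and pericytes, at 0.29 to 1.15 RPKM (2 to 13 reads). Ndufa4 was at 160 to 175 RPKM and its hypoxia-related paralogue Ndufa4l2 at 1.59 to 2.23 RPKM. None of these isoform pairs was apart between genotypes. Summed markers of pericytes and smooth muscle were at 39.8 to 42.3 RPKM, most of it Rgs5 at 23.6 to 24.6 RPKM. Of these 6 markers 1 was lower in KI at an unadjusted limma p under 0.05, Acta2, at 6.40 and 7.89 RPKM in WT and 5.04 and 4.39 RPKM in KI.

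2 nuclear complex IV genes had an unadjusted limma p under 0.05, Cox6b2 and Cox7b2, both of few reads and opposite in direction. Cox6b1, the somatic form of a subunit at the contact between complex IV monomers, was at 167 and 172 RPKM in WT and 181 and 173 RPKM in KI. Its testis form Cox6b2 was at 0.54 and 1.23 RPKM in WT (8 and 12 reads) and 1.95 and 2.48 RPKM in KI (31 and 41 reads). Both KI values were above both WT values, with a log2 fold change of 0.79 ± 0.22 (SE) and an adjusted limma p of 0.460. Cox7b, a small membrane subunit, was at 53.5 to 57.4 RPKM with overlapping groups. Its testis form Cox7b2 was at 0.83 and 0.63 RPKM in WT (6 and 3 reads) and was listed in neither KI sample. A floor of 3 reads corresponded to 0.37 to 0.38 RPKM in the KI samples, and the WT mean of 0.73 RPKM was 1.92 times the average floor. WT 2 itself held 3 reads, so this ratio is not a firm lower bound on the change. The fitted adjusted limma p was 0.336. Cox7b2 entered the test only through its WT values, and its difference rests on 9 reads.

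**Figure D4:**
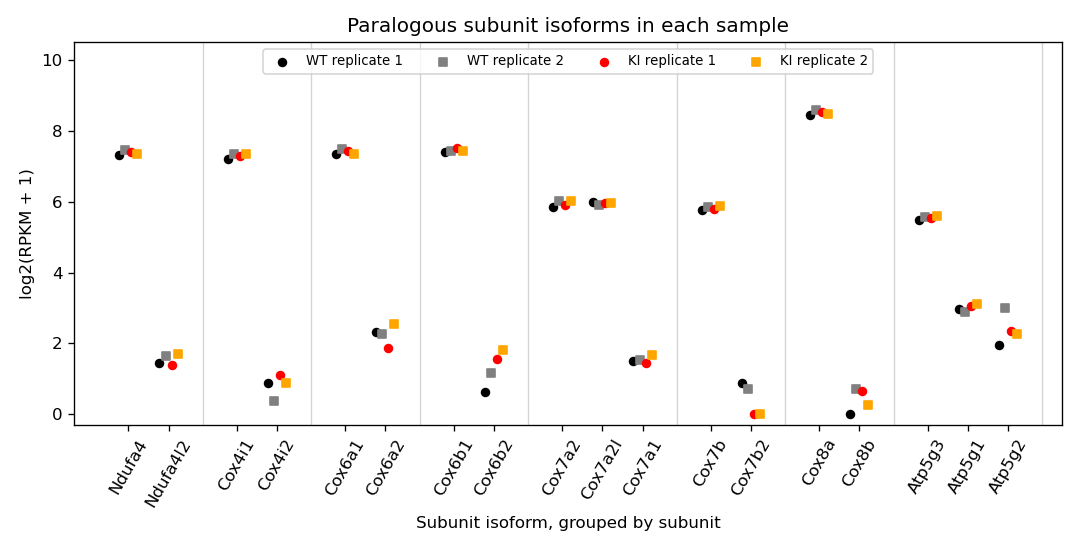
log2(RPKM + 1) of paralogous subunit isoforms in each of the 4 samples, grouped by subunit. The broadly expressed form of each complex IV subunit lies above the restricted form in every sample, and among the Atp5g genes Atp5g3 is highest.

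The c subunit of the ATP synthase rotor is encoded by 3 genes that differ in their import sequence. Atp5g3 was at 43.9 to 47.6 RPKM and Atp5g1 at 6.41 to 7.67 RPKM. Atp5g2 was at 2.87 and 6.94 RPKM in WT and 4.10 and 3.79 RPKM in KI, so the 2 WT samples lay on either side of both KI samples. The order of Atp5g1 and Atp5g2 is uncertain, because 86.4% of the 100-base windows of Atp5g2 were found in pseudogenes. The listed pseudogenes held 4.57% to 9.05% of the reads assigned to Atp5g2 or its copies, and 42.7% to 49.4% for Atp5g1. With those reads added to the gene, a setting chosen after seeing the data, Atp5g1 was at 11.9 to 13.4 RPKM and Atp5g2 at 3.16 to 7.27 RPKM.

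Sequence shared with other genes, mostly processed pseudogenes, was not limited to the c subunit genes. For Cox5b the only match was Gm11273, which is annotated as protein-coding. Of the 84 tested genes, 67 had no 100-base window in another gene and 17 had some, and 5 had at least 25%, a line drawn after the values were seen: Atp5g2, Atp5l (61.3%), Cox7c (44.4%), Ndufb4 (33.4%) and Atp5h (29.5%). These 5 had a median of 5.98 RPKM and the other 79 a median of 39.9 RPKM. Among the 23 pseudogenes that shared a window with a nuclear OXPHOS gene and had a listed value, 12 stood above their gene in mean RPKM. Gm10221 was at 112 to 126 RPKM and its gene Atp5l, a membrane subunit of the synthase, at 4.88 to 6.94 RPKM. Gm12338 was at 112 to 126 RPKM and its gene Cox7c at 12.4 to 13.2 RPKM. Gm10250 was at 139 to 157 RPKM and its gene Atp5h, a peripheral stalk subunit, at 20.5 to 21.7 RPKM. These ratios are per length, and the pseudogenes are short: Gm10221 has 309 bases of exon, whereas the exons annotated for Atp5l span 6443 bases, 11.8 times the length of its main transcript. In reads, pseudogenes held 47.3% to 53.0% of those assigned to Atp5l or its copies, 59.4% to 62.9% for Cox7c and 68.4% to 70.4% for Atp5h. For Atp5g2 and Ndufb4 the listed pseudogenes held only 4.57% to 9.05% and 2.83% to 8.90%.

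**Figure D5:**
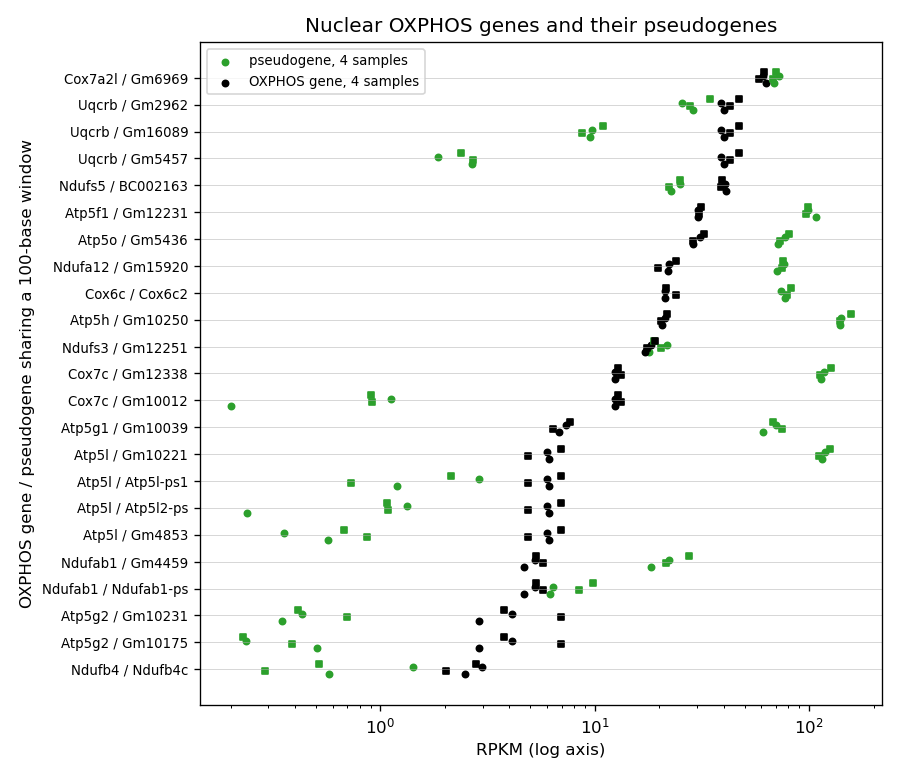
RPKM (log axis) in the 4 samples of each nuclear OXPHOS gene (black) and of a pseudogene that shares a 100-base window with it (green), 1 pair to a line, circles for replicate 1 and squares for replicate 2 of either genotype. Green lies to the right of black for 12 of the 23 pseudogenes, by up to 19.7 times for Gm10221.

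Adding the reads of the pseudogenes to their gene, a setting chosen after seeing the data, raised the level of these genes but left the comparison of genotypes at 8 genes with an unadjusted limma p under 0.05 and 0 past the threshold. Only pseudogenes with a listed value could be added, which leaves out the chromosome 1 copies of mitochondrial genes other than Gm10222. Atp5l then stood at 11.8 and 10.4 RPKM in WT and 11.9 and 13.2 RPKM in KI. Cox7c stood at 31.8 and 32.6 RPKM in WT and 32.8 and 34.5 RPKM in KI. mt-Co2 stood at 142 and 128 RPKM in WT and 159 and 144 RPKM in KI, with a log2 fold change of 0.17 and an adjusted limma p of 0.569, beside a log2 fold change of 0.00 without the addition. mt-Nd4l moved from a log2 fold change of -0.04 to 0.08 (adjusted limma p of 0.599), so the direction given for both genes depends on how reads shared with their copies are assigned. For Atp5o the pseudogene Gm5436, at 71.6 and 72.9 RPKM in WT and 77.1 and 80.9 RPKM in KI, was likewise higher in both KI samples.

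The promoters of the nuclear genes were searched for motifs, which the choice of genes did not use, and each motif was in a minority of them. RefSeq promoter windows (GRCm38.p6, 250 bases before to 50 after the start) matched 67 of the genes, with 72 windows, and were searched on both strands beside 32851 windows of all genes. The palindromic core of nuclear respiratory factor NRF1, the longer run of capitals in the first sequence below, was in 6.94% of the windows and 0.971% of all windows, and the shorter NRF1 site TGCGCA, which can overlap the core, in 25% and 7.76%. The ETS core of the GABP factor, CCGGAAG, was in 22.2% and 8.86%, and the YY1 core AAGATGGC in 12.5% and 2.75%. The windows of the set were also richer in CG dinucleotides, with a median of 19 beside 7. The shares were not tested, nor compared at a like CG content. A match is a run of letters, and binding was not measured. In complex IV the windows of the broadly expressed genes Cox8a, Cox6b1, Cox6a1 and Cox5b held at least 1 of the 4 motifs. Those of the broadly expressed Cox7a2, Cox7a2l, Cox7b, Cox7c, Cox5a and Ndufa4 held none, nor did those of the restricted Cox7a1, Cox6b2, Cox7b2 and Cox8b. CG dinucleotides numbered 19 for Cox8a beside 2 for Cox8b and 20 for Cox7a2 beside 7 for Cox7a1, but 5 for Cox7b beside 10 for Cox7b2. A link between these letters and level was not tested. Of the windows with a motif, 2 are shown with that of a restricted isoform, chosen after the matches were seen: Cox6a1 (chr5:115348909-115349208, minus strand), Cox6b1 (chr7:30626065-30626364, minus strand) and Cox6b2 (chr7:4753045-4753344, minus strand), with the NRF1 core and the reverse complement of the ETS core in capitals.
Cox6a1: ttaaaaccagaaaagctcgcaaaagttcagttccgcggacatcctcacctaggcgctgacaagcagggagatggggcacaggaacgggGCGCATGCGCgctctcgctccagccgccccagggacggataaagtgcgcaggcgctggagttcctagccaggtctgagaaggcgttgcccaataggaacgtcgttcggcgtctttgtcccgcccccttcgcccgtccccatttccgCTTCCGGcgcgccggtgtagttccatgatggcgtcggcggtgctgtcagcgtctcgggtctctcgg
Cox6b1: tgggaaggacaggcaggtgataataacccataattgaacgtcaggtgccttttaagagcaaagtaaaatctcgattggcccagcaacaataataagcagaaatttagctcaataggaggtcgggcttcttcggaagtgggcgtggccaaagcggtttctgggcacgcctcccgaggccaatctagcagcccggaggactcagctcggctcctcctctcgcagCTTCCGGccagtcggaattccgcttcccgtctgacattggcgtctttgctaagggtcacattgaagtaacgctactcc
Cox6b2: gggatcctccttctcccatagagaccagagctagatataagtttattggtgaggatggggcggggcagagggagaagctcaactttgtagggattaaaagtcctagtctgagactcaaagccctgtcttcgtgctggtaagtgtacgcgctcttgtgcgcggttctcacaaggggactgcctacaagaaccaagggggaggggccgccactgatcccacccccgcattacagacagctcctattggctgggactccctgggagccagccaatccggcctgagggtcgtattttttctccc
The Cox6a1 window holds both motifs and 32 CG dinucleotides, the Cox6b1 window the ETS core and 17, and the Cox6b2 window neither motif and 10. Mean levels over the 4 samples were 168 RPKM for Cox6a1, 174 RPKM for Cox6b1 and 1.55 RPKM for Cox6b2.

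Genes that build or drive the OXPHOS system were counted in the same fit. Among 46 assembly factors, 2 were higher in KI at an unadjusted limma p under 0.05 and 0 lower, with a median log2 fold change of 0.03. These were Uqcc2, needed for complex III assembly, at 16.5 and 15.8 RPKM in WT and 19.4 and 18.0 RPKM in KI, and Ecsit, a complex I assembly factor, at 19.0 and 19.9 RPKM in WT and 23.1 and 21.2 RPKM in KI. Next by p came Tmem70, a complex V factor, with a log2 fold change of 0.13. Of 24 regulators of mitochondrial transcription and biogenesis, 23 were tested and 1 was higher, the nuclear receptor Esrra at 12.7 and 13.8 RPKM in WT and 15.2 and 15.1 RPKM in KI. Yy1 was at 17.0 and 17.6 RPKM in WT and 15.3 and 15.9 RPKM in KI, a log2 fold change of -0.14 with an unadjusted limma p of 0.055. Among 17 citric acid cycle genes 1 was higher, the isocitrate dehydrogenase Idh2 at 12.8 and 14.1 RPKM in WT and 16.4 and 14.99 RPKM in KI. Among 19 electron and nucleotide carriers 1 was higher, the uncoupling protein Ucp2 at 1.77 and 1.69 RPKM in WT and 2.52 and 2.36 RPKM in KI. The share with an unadjusted p under 0.05 was 4.35% to 5.88% in these lists, below the 9.62% of all tested genes, and 0 genes of any list passed the threshold.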

How the data were processed

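Poly(A) RNA from the hippocampus of each genotype (2 samples each) was sequenced in read pairs. Per the submitters' processing notes and methods, the authors aligned reads to mm10 with GSNAP and kept uniquely and properly mapped pairs. The values the authors deposited are RPKM, 1 table per sample, with no pooling. A gene absent from a table was given 0. RPKM values are not counts, so limma (version 3.58.1, R version 4.3.3) with a mean-variance trend was run on log2(RPKM + 1) in place of edgeR, on genes that reached 0.5 RPKM in 2 or more samples, with Benjamini-Hochberg adjustment over all of them, and was tested on simulated data. A fold change on this scale understates the change of low genes. Sums were compared by exact permutation.

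Mapped reads were derived from the steps between RPKM values. With exon lengths of GENCODE M21, 57 OXPHOS genes gave whole reads within 0.05 in all samples. The samples are labelled as replicates and nothing says whether each is 1 animal, so p-values measure the spread between these samples. The genes and lists were chosen with earlier results of these data known. Named were all mitochondrial genes, the 3 highest nuclear genes of each complex, genes with an unadjusted p under 0.05, the isoform families, genes not tested, and of other lists the genes with the smallest p. Genes with pseudogene copies and Sdhc were named beyond this rule after their values were seen. Shared sequence was counted as exact 100-base windows of the main transcript found in transcripts of other genes at other loci, so copies outside the annotation were not seen. Protein sequences were not used here, and 1 item is not reported here.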

Additional observations from a re-analysis of the deposited data

How the results depend on the processing

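The count of OXPHOS genes past the threshold was 0 under every setting run. All settings but 1 called 0 genes in the whole table too, so this count says nothing about stability. Without the mean-variance trend limma called 20 genes over the whole table, and 0 of them were OXPHOS genes. The count at an unadjusted p under 0.05, 8 as reported, was 6 to 10 over all settings. Ndufs6 and Ndufv3 stayed under 0.05 in every setting. So did Cox7b2 where it was tested, but with both KI samples at 0 this does not bear on its stability. Uqcrq (without WT 1 or KI 2), Atp5e (without WT 2 or KI 2) and Cox6b2 (without either KI sample) lost it in 2 settings each, Ndufa6 in 5 and Atp5o in 7 of 13, and 0 of the 8 changed direction. A fit without 1 sample leaves 1 in that group and takes the spread from the other genotype, so a p gained or lost there is weak evidence either way. The summed mitochondrial difference of 95.2 RPKM became -159 RPKM with median-of-ratios size factors and ran from -1697 (without WT 2) to 1888 (without WT 1) RPKM when 1 sample was left out, so its sign is not settled. The nuclear difference ran from -51.4 (without WT 1) to 186 RPKM (without WT 2). The median of nuclear OXPHOS genes minus that of all genes, 0.02 on the log2 scale, ran from -0.0050 (without WT 1) to 0.053 (without WT 2). Scaling moved the median of all genes by 0.02 or less. The labels number the replicates, but same-numbered samples did not deviate together (r = -0.02 over 18436 genes, as a description), and a fit with the replicate block gave 0 genes past the threshold and 6 under 0.05. Genes of few reads, such as Cox7b2, Cox8b and Cox4i2, are limited by depth, which was lowest in WT 2.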

Other observations

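Mitochondrial RNAs outside the protein-coding genes were also listed. The ribosomal RNAs held 0.496% and 0.453% of mapped reads in WT and 0.512% and 0.495% in KI, and the transfer RNAs 0.106% and 0.0954% in WT and 0.107% and 0.111% in KI. The groups overlapped for the ribosomal RNAs, and both KI values were just above both WT values for the transfer RNAs. WT 2 was the lowest sample for both, as it was for most mitochondrial protein genes. The libraries were made from poly(A) RNA, so these shares do not measure the amount of either class in the tissue.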
